A study of Mus musculus with 4 samples.

Results

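The transcription factors of the trophectoderm were followed across mouse morula and blastocyst wells with a control or an NKX1-2 morpholino. The 9 members were the rows of the count matrices with the symbols Gata3, Gata2, Cdx2, Tfap2c, Tfap2a, Eomes, Klf5, Elf3 and Elf1, of 55453 genes in all. Each of them had at least 1 count. A morpholino is an antisense oligonucleotide that blocks translation or splicing of the RNA it pairs with, and NKX1-2 is a homeobox transcription factor. Embryos of unstated strain and age received one or the other morpholino, and 4 plates were made from them, 2 at the morula and 2 at the blastocyst stage, each with 48 wells per morpholino. The source is labelled as single cells, and the embryo a well came from is not given in the sources used here. The plate was therefore the replicate (n = 2 per stage). P-values of the stage comparisons measure only the spread between these plates. Those of the morpholino comparisons measure only how the difference within a plate varied between plates of a stage.

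The trophectoderm is the outer epithelium of the blastocyst and later builds the placenta, while the inner cell mass gives rise to the embryo proper. In outer cells the coactivator YAP enters the nucleus and acts with TEAD4, which turns on Cdx2 and Gata3. CDX2 is a caudal-type homeodomain protein that represses pluripotency genes, and GATA3 and GATA2 are zinc-finger proteins that bind GATA motifs. AP-2γ (Tfap2c) and AP-2α (Tfap2a) bind GC-rich sites, EOMES is a T-box factor of trophoblast stem cells, KLF5 is a Krüppel-like factor needed for both early lineages, and ELF3 and ELF1 are ETS-domain proteins.

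Of the 9 members, 7 had a promoter in the RefSeq table (GRCm38.p6). The upstream bases of Gata3, Cdx2 and Elf3 are shown because these were the members that rose between the stages with either morpholino. Each runs 5′ to 3′ on the gene's strand and starts 250 bases before the RefSeq start. Bases inside an annotated UTR were left out, 21 for Cdx2 and 96 for Elf3. Capitals mark matches on either strand to GGAATG (TEAD), GATAA (GATA), GCCNNNGGC (AP-2), CCGGAA (ETS), GGGCGG (KLF and SP) and TAATTA (homeodomain). No matches overlap in the stretches shown.
Gata3, chr2:9878601-9878850, minus strand: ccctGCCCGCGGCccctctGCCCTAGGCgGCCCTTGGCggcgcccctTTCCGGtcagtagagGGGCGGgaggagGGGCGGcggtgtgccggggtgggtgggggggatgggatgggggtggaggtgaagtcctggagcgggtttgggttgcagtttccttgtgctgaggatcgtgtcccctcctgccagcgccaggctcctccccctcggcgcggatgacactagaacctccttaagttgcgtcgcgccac
Cdx2, chr5:147307271-147307499, minus strand: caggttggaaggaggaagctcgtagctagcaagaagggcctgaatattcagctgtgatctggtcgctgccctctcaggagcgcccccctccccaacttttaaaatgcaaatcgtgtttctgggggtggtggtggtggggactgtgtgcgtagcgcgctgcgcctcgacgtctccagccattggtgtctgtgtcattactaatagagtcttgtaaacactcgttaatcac
Elf3, chr1:135258569-135258722, minus strand: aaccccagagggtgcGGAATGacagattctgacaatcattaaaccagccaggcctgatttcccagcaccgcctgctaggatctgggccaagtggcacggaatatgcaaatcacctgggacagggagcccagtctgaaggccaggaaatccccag
The Gata3 stretch held 3 AP-2 matches, at -246, -231 and -221 from the start, 1 ETS match at -203, and 2 KLF and SP matches at -188 and -176. It lies inside the annotated Gata3 gene (chr2:9857078-9890034), upstream of a start within that gene and not of the gene's outer end. It also lies within an exon of Gm13256, an annotated antisense transcript. Elf3 had 1 TEAD match at -235, and Cdx2 had 1 AP-2 match at -16, which lies in the bases left out. Over 32851 promoters of 250 bases, 12.6% held the TEAD letters, 22.6% the GATA letters, 13.7% the AP-2 letters, 12.0% the ETS letters, 32.7% the KLF and SP letters and 4.84% the homeodomain letters. A match describes the letters only.

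Of 384 wells, 368 had 2000 or more detected genes and entered the analysis. Their counts were added up per plate and morpholino into 8 sums of 1084312 to 2398605 counts. Levels are given in CPM, counts scaled to a common sum size after TMM normalization. NKX1-2 wells were deeper than control wells in every plate: the median counts per well were 41251 and 44201 in control and 47763.5 and 48648 in NKX1-2 morula wells, and 22391 and 31360 against 30453 and 37602 in the blastocyst. The summed marker levels in this paragraph are the exception: they are in CPM without TMM, a different scale from the members' levels. The summed level of 12 trophectoderm markers was 245 to 317 CPM in the morula sums and 856 to 975 CPM in the blastocyst sums. On that scale every blastocyst sum lay above every morula sum. None of these markers is a member, but the list was chosen with earlier results of these data known. Cumulus and granulosa markers summed to at most 2.05 CPM, with 5 of 8 at 0 in each stage, and fibroblast markers to at most 4.61 CPM, with Col3a1, Dcn and Lum at 0. Oocyte markers summed to 39.2 to 52.7 CPM in the morula and 9.22 to 22.5 CPM in the blastocyst. Nkx1-2 itself had 0 counts in all 8 sums, which allows up to 1.25 to 2.77 CPM per sum without TMM. Its RNA therefore gives no check of the labels. All plates used the same 96 well barcodes, so barcodes name wells and not cells. In sums of this kind, fewer cells with a transcript and less RNA per cell cannot be told apart.

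Klf5 and Tfap2c were the most abundant members per length in the morula, and Elf3 and Klf5 in the blastocyst. Per kilobase of annotated exons, the median level over the 4 morula sums was 106 CPM for Klf5, 51.6 for Tfap2c, 8.45 for Elf3, 4.06 for Gata3, 2.49 for Elf1, 1.42 for Cdx2, 1.32 for Tfap2a and 0.55 for Eomes. Klf5 and Tfap2c did not overlap with each other or with any lower member, while from Elf3 down to Eomes each neighbour overlapped the next, except that Tfap2a lay above Eomes. In the blastocyst the order was Elf3 at 90.9 CPM per kilobase, Klf5 at 60.4, Tfap2c at 24.0, Gata3 at 20.5, Cdx2 at 5.27, Tfap2a at 2.29, Elf1 at 1.44 and Eomes at 1.19. Among neighbours there, Tfap2c overlapped Gata3, Cdx2 overlapped Tfap2a, and Tfap2a, Elf1 and Eomes overlapped one another in turn. How reads spread along a transcript is not given in the sources used here, so these per-length levels assume even cover.

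**Figure D1:**
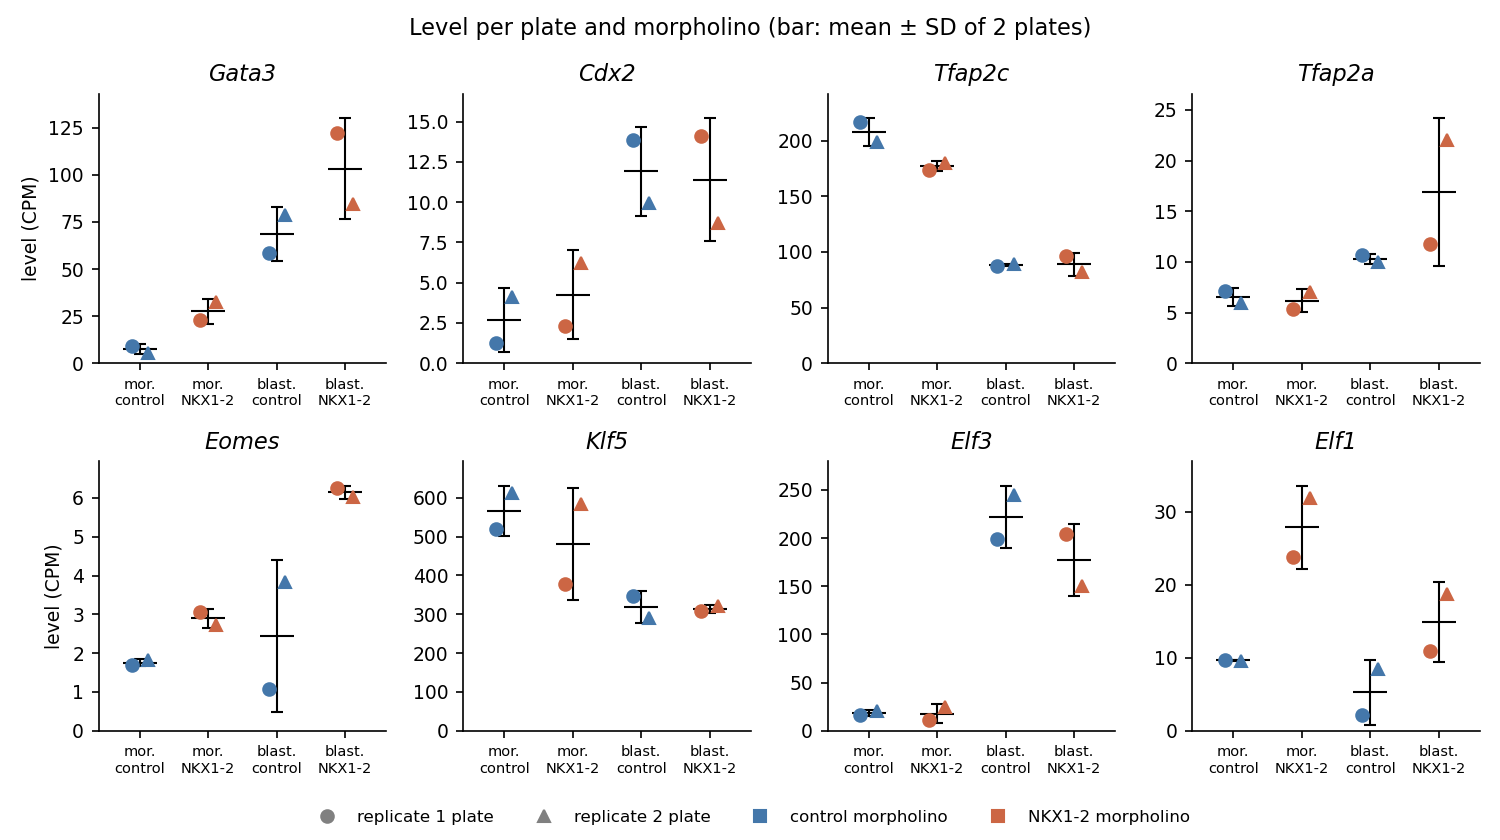
Level of 8 members in CPM (y axis, starting at 0, its own scale for each gene) in the 4 groups of stage and morpholino. Circles are replicate 1 plates and triangles replicate 2 plates, with black bars for mean ± SD of 2 plates. Elf3 rises more than any other member between the stages. Gata3, Elf1 and, at few counts, Eomes lie higher in NKX1-2 than in control sums of the same plate.

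Gata2 was at the limit of detection. It had 1 count, in the control wells of blastocyst replicate 2, and 0 counts in the other 7 sums. There 0 counts allow up to 1.25 to 2.77 CPM per sum without TMM. Gata2 was not tested, and its level was not detectable at this depth.

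The first comparison was between the stages, and its question was which members differed between the morula and the blastocyst. Elf3, Gata3 and Cdx2 rose and Tfap2c and Klf5 fell, with the control and with the NKX1-2 morpholino alike. In control wells 5 of the 7 tested members passed, 3 higher and 2 lower, where 41.7% of all tested genes passed (20.1% higher and 21.6% lower). In NKX1-2 wells 7 of 8 passed, 4 higher and 3 lower, where 45.9% of all genes passed (21.9% higher and 24.0% lower). The members' median log2 fold change was 0.65 in control and 1.23 in NKX1-2 wells, beside -0.01 and -0.02 over all genes. Eomes did not reach the count filter in control wells. Members differ from all genes in level, so these shares are descriptive. Stage lies between plates, so stage and plate cannot be told apart beyond n = 2.

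Elf3 (ENSMUSG00000003051, chr1:135253575-135258568, minus strand, GRCm38) made the largest change of the members tested. Its control sums held 16.5 and 20.99 CPM in the morula and 199 and 245 CPM in the blastocyst, and its NKX1-2 sums 11.1 and 24.5 CPM against 204 and 150 CPM. No blastocyst sum overlapped a morula sum. The log2 fold change was 3.58 in control wells (SE 0.25, adjusted p = 4.16e-11) and 3.31 in NKX1-2 wells (SE 0.28, adjusted p = 1.48e-07), by edgeR's quasi-likelihood test with Benjamini-Hochberg adjustment, as for every adjusted p unless another tool is named.

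Gata3 (ENSMUSG00000015619, chr2:9857078-9890034, minus strand) rose with stage with either morpholino, from a morula level that was higher in the NKX1-2 than in the control sums. Control sums held 9.29 and 5.48 CPM in the morula and 58.6 and 78.9 CPM in the blastocyst, with a log2 fold change of 3.22 at SE 0.34 (adjusted p = 9.43e-08). NKX1-2 sums held 23.0 and 32.3 CPM and then 122 and 84.3 CPM, with a log2 fold change of 1.90 at SE 0.25 (adjusted p = 6.75e-06). Every blastocyst sum lay above every morula sum. Gm13256, which shares 155 exonic bases with Gata3 on the opposite strand, had 0 counts in all morula sums and 5, 16, 13 and 19 counts in the blastocyst sums, where Gata3 had 55, 156, 103 and 126. Whether counting used the strand is not given in the sources used here.

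Cdx2 was scarce at both stages. In control wells it went from 1.27 and 4.11 CPM (3 and 9 counts) in the morula to 13.9 and 9.95 CPM (13 and 13 counts) in the blastocyst. The log2 fold change was 2.13 (SE 0.56, adjusted p = 0.00396). In NKX1-2 wells it went from 2.30 and 6.22 CPM to 14.1 and 8.69 CPM, at a log2 fold change of 1.395 with SE 0.51 (adjusted p = 0.0310). Blastocyst sums lay above morula sums in each morpholino group. The call rested on few counts: DESeq2 gave adjusted p = 0.0638 in control and 0.177 in NKX1-2 wells. Without morula replicate 1 the call was lost with either morpholino, at log2 fold changes of 1.48 and 0.83. It was also lost in NKX1-2 wells without either blastocyst plate.

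Of the AP-2 genes, Tfap2c fell with either morpholino, and Tfap2a rose in NKX1-2 wells without passing in control wells. Tfap2c held 217 and 199 CPM in control and 174 and 180 CPM in NKX1-2 morula sums, and 87.4 and 88.8 against 96.4 and 81.6 CPM in the blastocyst. It fell by 1.23 (SE 0.20, adjusted p = 3.91e-05) and by 0.99 (SE 0.17, adjusted p = 0.000154) on the log2 scale in control and NKX1-2 wells, and every morula sum was above every blastocyst sum. Tfap2a rose in NKX1-2 wells, from 5.37 and 6.999 to 11.8 and 22.1 CPM (log2 fold change 1.46, SE 0.43, adjusted p = 0.00914). In control wells its levels of 7.18 and 5.93 CPM and then 10.7 and 9.95 CPM gave a log2 value of 0.65 with SE 0.47 (adjusted p = 0.281). The call in NKX1-2 wells was lost with DESeq2 (adjusted p = 0.0752), without blastocyst replicate 2 (0.92) and without morula replicate 1 (1.26). Tfap2a shares 718 exonic bases with antisense genes, none of which had more than 2 counts in a sum.

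Klf5 was high throughout and fell modestly. Its control sums went from 520 and 612 CPM to 348 and 290 CPM (log2 fold change -0.82, SE 0.17, adjusted p = 0.000534), and its NKX1-2 sums from 379 and 583 CPM to 307 and 321 CPM (log2 fold change -0.61, SE 0.17, adjusted p = 0.00731). In NKX1-2 wells the call was lost without morula replicate 2, at -0.30, and without either blastocyst plate, at -0.57 and -0.64. Elf1 fell by 0.88 (SE 0.34, adjusted p = 0.0417) on the log2 scale in NKX1-2 wells and had a log2 change of -0.74 with SE 0.54 (adjusted p = 0.283) in control wells. That call was lost in 9 of 15 alternatives, DESeq2 and limma voom among them, so it sits at the threshold. Eomes had a log2 change of 1.07 with SE 0.52 (adjusted p = 0.104) in NKX1-2 wells and did not pass.

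**Figure D2:**
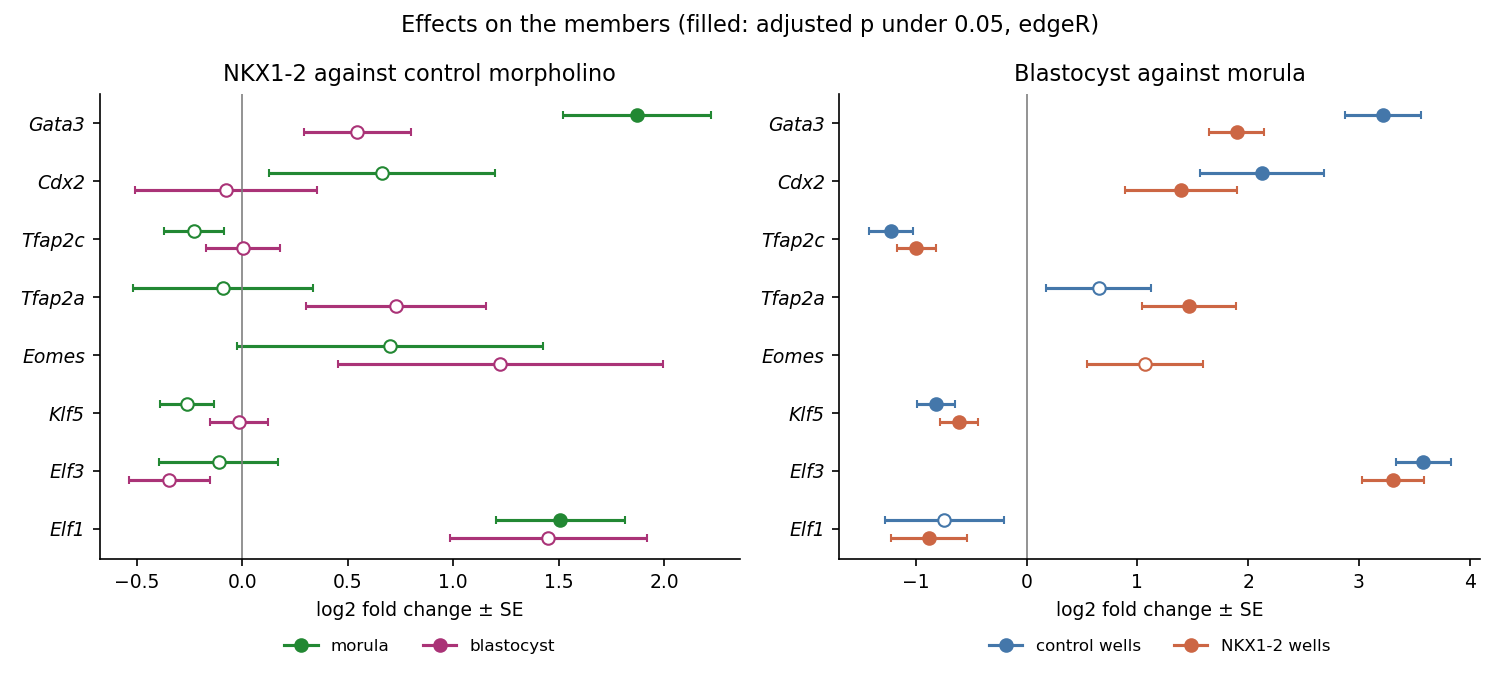
Log2 fold change ± SE (x axis) of 8 members (y axis) for NKX1-2 against control morpholino within each stage (left) and for blastocyst against morula within each morpholino (right); filled points have an adjusted p under 0.05, and Eomes has no point for control wells. On the left the filled points are Gata3 and Elf1 in the morula, and on the right Elf3 and Gata3 lie farthest to the right.

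The second comparison was between the morpholinos in the morula. Gata3 and Elf1 were the members that rose, 2 of 8 tested, where 0.552% of all genes passed and 0.276% rose. Gata3 sums held 9.29 and 23.0 CPM (control and NKX1-2) on replicate 1 and 5.48 and 32.3 CPM on replicate 2. The 2 groups did not overlap. The ratio was 2.47 (95% exact interval 1.496 to 4.24) on replicate 1 and 5.89 (3.20 to 11.9) on replicate 2, intervals that cover counting error only. Over both plates the log2 fold change was 1.87 (SE 0.35, adjusted p = 0.0278).

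Elf1 (ENSMUSG00000036461, chr14:79481194-79582494, plus strand), an ETS factor with a known role in blood and lymphoid genes, showed the same order in both plates. Its control sums held 9.72 and 9.58 CPM and its NKX1-2 sums 23.8 and 31.9 CPM, ratios of 2.45 (95% exact interval 1.49 to 4.14) and 3.33 (2.04 to 5.66). The log2 fold change was 1.51 (SE 0.30, adjusted p = 0.0296). The groups did not overlap. Elf1 shares 327 exonic bases with Wbp4 on the opposite strand, whose own log2 fold change was 0.24 (adjusted p = 0.765), and 4.81% of the 31-base stretches of Elf1 transcripts occur in another gene, mostly Gm6649.

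Both calls depended on a few choices. With deep wells thinned to 37602 counts the log2 fold changes were as large, 1.874 and 1.4998, but adjusted p = 0.0503 for Gata3 and 0.0729 for Elf1. Gata3 was not called by limma voom (adjusted p = 0.0562) or without morula replicate 2, at 1.33, and it was 2.55 without replicate 1. Elf1 was not called without either morula plate (1.73 and 1.31) or with no replicate block (1.52, adjusted p = 0.0854), and DESeq2 gave it no adjusted p. Wells with an Xist count and no Y-linked count made up 25 of 48 control and 10 of 48 NKX1-2 wells on replicate 1, and 27 of 48 and 23 of 47 on replicate 2. In those wells alone, with 8293 genes tested, the log2 fold changes were 1.63 for Gata3 (adjusted p = 0.689) and 1.30 for Elf1 (adjusted p = 0.626).

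The other 6 tested members did not pass in the morula. Klf5 had a log2 change of -0.26 with SE 0.13 (adjusted p = 0.493), with ratios of 0.73 and 0.95 on the plates. It passed in a fit of the morula plates alone (-0.25, adjusted p = 0.0457) and without blastocyst replicate 1 or 2, fits in which 834, 833 and 838 genes passed in all. Tfap2c had -0.23 (SE 0.14), Cdx2 0.66 (SE 0.54), Eomes 0.70 (SE 0.72), Elf3 -0.11 (SE 0.28) and Tfap2a -0.09 (SE 0.43). Cdx2 and Eomes had only 3 to 16 counts per morula sum. The median over the 8 members was 0.29, against -0.00 over all genes.

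Wells with an Xist and no Y-linked count were 15 of 43 control and 35 of 47 NKX1-2 wells on blastocyst replicate 1, and 6 of 43 and 20 of 44 on replicate 2. In the blastocyst none of the 8 tested members passed by edgeR, where 0.727% of all genes did; 2 had an unadjusted p under 0.05, Gata3 and Elf1, and limma voom called none. DESeq2 called none of the 4 to which it gave an adjusted p, and it gave none to Elf1, Eomes, Tfap2a and Cdx2. Gata3 levels were 58.6 and 122 CPM (control and NKX1-2) on replicate 1 and 78.9 and 84.3 CPM on replicate 2. The plates differed: the ratio was 2.08 (95% exact interval 1.52 to 2.89) on the first and 1.07 (0.82 to 1.4001) on the second. Over both the log2 fold change was 0.55 (SE 0.25, adjusted p = 0.362). It was 1.06 without replicate 2 and 0.10 without replicate 1, each the effect on the plate left.

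Elf1 was higher with the NKX1-2 morpholino on both blastocyst plates without passing. It held 2.13 and 10.97 CPM (2 and 14 counts) on replicate 1, a ratio of 5.14 with an exact interval of 1.18 to 46.6, and 8.42 and 18.7 CPM on replicate 2, a ratio of 2.22 (1.07 to 4.95). The log2 fold change was 1.45 (SE 0.47, adjusted p = 0.165). Elf3, at 199 and 204 CPM on replicate 1 and 245 and 150 CPM on replicate 2, had a log2 change of -0.34 with SE 0.19 (adjusted p = 0.465). Without replicate 1 it was -0.70. Tfap2a had 0.73 (SE 0.43, adjusted p = 0.483), Eomes 1.22 (SE 0.77, adjusted p = 0.513), Cdx2 -0.08 (SE 0.43), Klf5 -0.01 (SE 0.14) and Tfap2c 0.00 (SE 0.17). For Klf5 and Tfap2c, the errors were the smallest of the 8.

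Averaged over the stages, Elf1 (log2 fold change 1.48, SE 0.28, adjusted p = 0.00887) and Gata3 (1.21, SE 0.22, adjusted p = 0.00944) passed, 2 of 8 members, where 2.90% of all genes passed and 1.56% rose. Elf1 was higher in NKX1-2 than in control wells on 4 of 4 plates, and so was Gata3. This average holds the sums of both stage comparisons and is no separate evidence. Both calls held without each plate in turn and with thinned wells; in wells with Xist and no Y-linked count they were lost, at 2.16 (adjusted p = 0.129) for Elf1 and 1.23 (adjusted p = 0.240) for Gata3. The morpholino effect on Gata3 was 1.32 lower in the blastocyst than in the morula on the log2 scale (log2 difference -1.32, SE 0.44, adjusted p = 0.580). A difference between stages was therefore not shown. Without blastocyst replicate 1 the log2 difference was -1.77. No member passed this test of the difference by edgeR, limma voom or DESeq2, 1 had an unadjusted p under 0.05, and 0.0184% of all genes passed, 0.00920% higher and 0.00920% lower.

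The share of wells with a count was compared after thinning each well to 20000 counts, which left 345 wells and left out 23, 13 of them control wells of blastocyst replicate 1. Klf5 was found in 95.2% to 100% of these wells in every plate and morpholino. Tfap2c went from 95.7% to 100% in the morula to 60.0% to 78.6% in the blastocyst, while Elf3 went from 17.0% to 30.4% up to 72.1% to 85.7%. These stage shifts run in the direction of the levels. Cdx2 was found in 2.17% to 6.38% of morula and 11.6% to 23.3% of blastocyst wells, Tfap2a in 6.38% to 15.2% and 6.67% to 18.6%, and Eomes in 2.13% to 6.38% and 0% to 14.0%, where 0 of 30 wells would allow a share of up to 11.6% by an exact 95% interval.

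Gata3 had a count in more NKX1-2 than control wells of the morula. The shares were 19.6% (9 of 46 wells, exact 95% interval 9.36 to 33.9) and 31.9% (15 of 47, 19.1 to 47.1) on replicate 1, and 8.51% (4 of 47, 2.37 to 20.4) and 42.6% (20 of 47, 28.3 to 57.8) on replicate 2. Before thinning they were 29.2% and 43.8%, and 16.7% and 74.5%. In the blastocyst they were 43.3% and 72.1% on replicate 1, and 21 and 22 wells of 42 and 43 on replicate 2, so the plates differed here as they did in level.

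Elf1 went from 23.9% of control to 36.2% of NKX1-2 morula wells on replicate 1, and from 12.8% to 53.2% on replicate 2. In the blastocyst the shares were 3.33% and 11.6%, and 16.7% and 34.9%. The order was the same on 4 of 4 plates. Unthinned, the shares were 39.6% and 68.8%, 31.3% and 70.2% in the morula, and 2.33% and 25.5%, 23.3% and 38.6% in the blastocyst.

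**Figure D3:**
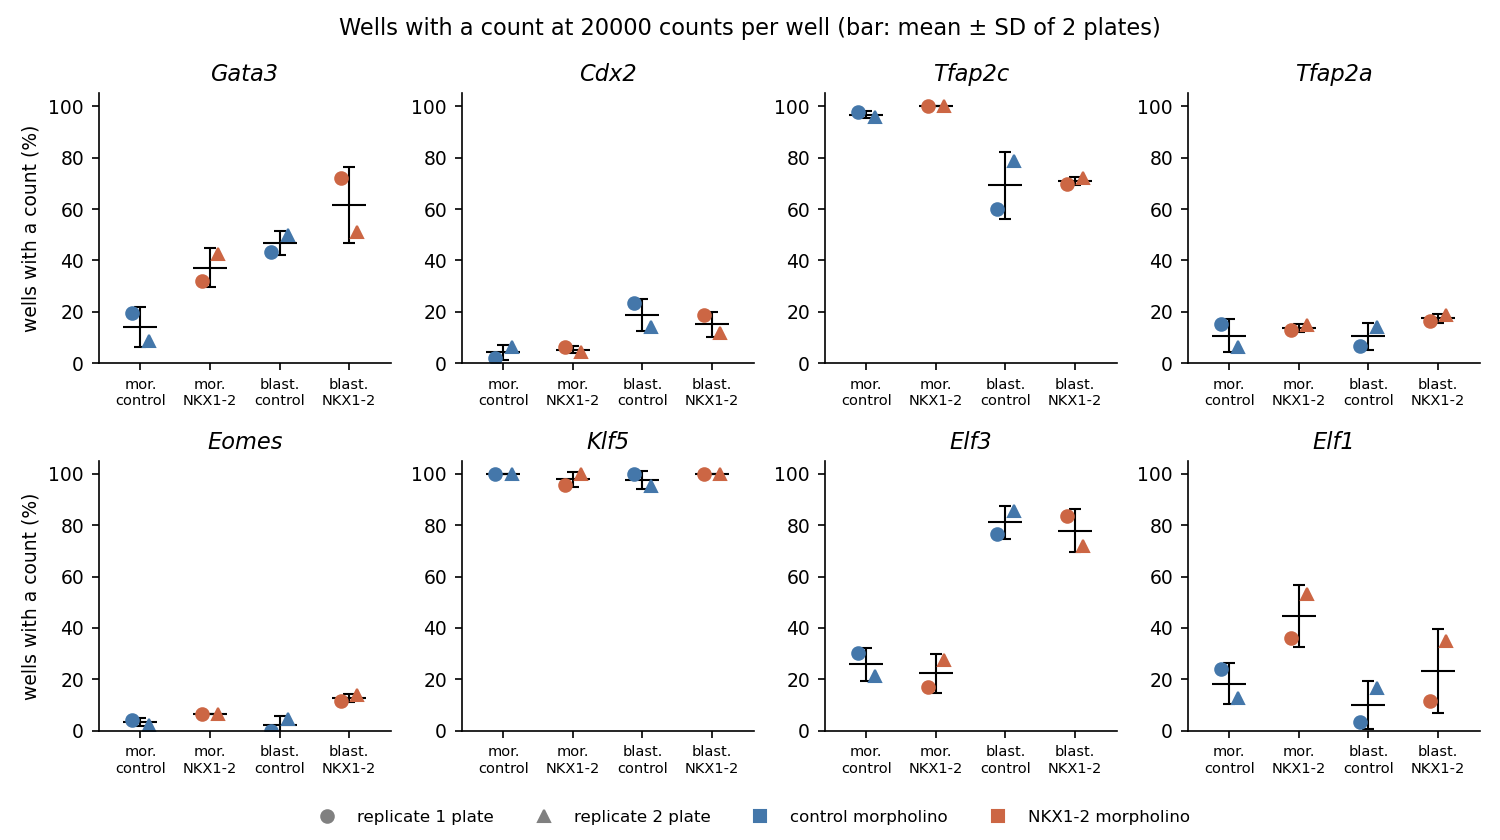
Percent of wells with a count (y axis) of 8 members after each well was thinned to 20000 counts, in the 4 groups of stage and morpholino; symbols and bars as for the levels. Klf5 stays near 100% in all groups, and Elf3 rises and Tfap2c falls from morula to blastocyst. Gata3, Elf1 and, at few counts, Eomes are higher in NKX1-2 than in control wells of each plate. For Gata3 this is only by 1.16 points on blastocyst replicate 2.

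The spread of counts over wells is given as their variance over their mean. In thinned wells the variance of Elf3 counts was 3.62 to 3.98 times their mean in the 4 blastocyst groups, that of Gata3 1.79 to 3.89 times, and that of Elf1 in the 3 groups with 10 or more morula counts 0.93 to 1.14 times. In the morula, in groups with at least 10 thinned counts, it was 1.19 to 3.31 for Elf3 and 1.15 to 2.02 for Gata3. This ratio grows with the mean, and with amplified reads if these and not molecules were counted, so the members' values are not compared. The most Elf3 counts in 1 unthinned well was 29, on control wells of blastocyst replicate 2, against 11 in the morula. The variance of Klf5 counts in thinned morula wells was 2.24 to 3.45 times their mean. The median thinned well of a group had counts of 2 to 4 of the 9 members, and the most was 8, among control wells of blastocyst replicate 2.

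Pairs of members had higher correlations over blastocyst wells than over morula wells at the median. Correlations were taken within each plate and morpholino, on log2(CPM + 10), and averaged over the 2 plates, for members with a count in at least 25% of the wells of each group. These were Tfap2c, Klf5, Elf3 and Elf1 in the morula and Gata3, Tfap2c, Klf5 and Elf3 in the blastocyst, so 6 pairs each. The median correlation was 0.03 in control and -0.02 in NKX1-2 morula wells, and 0.31 and 0.27 in blastocyst wells. Among pairs present at both stages, Tfap2c with Klf5 in NKX1-2 wells went down, from 0.41 in the morula to 0.09. Tfap2c with Elf3 in control wells went from 0.17 to 0.12. The other mean correlations of these shared pairs were higher in the blastocyst. Wells share plates and differ in depth and cell type, and the pairs differ between the stages, so these are descriptions.

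Gata3 and Elf3 formed the pair that was highest on average in blastocyst wells of both morpholinos after thinning. Their correlation was 0.32 and 0.55 on the control plates and 0.38 and 0.54 on the NKX1-2 plates, and after thinning 0.44, 0.55, 0.38 and 0.52. Klf5 with Elf3 had means of 0.44 in control and 0.35 in NKX1-2 wells, and Gata3 with Klf5 0.43 and 0.24. Tfap2c had lower values: its means were 0.10 and 0.13 with Gata3, and 0.12 and 0.30 with Elf3. Its correlation with Klf5 was 0.46 on 1 control plate and -0.08 on the other. In the morula, the largest mean was that of Tfap2c with Klf5 in NKX1-2 wells, 0.41 (0.41 and 0.40), against -0.08 in control wells; after thinning they were 0.26 and -0.13, below Elf3 with Elf1 at 0.31 in NKX1-2 wells. The difference between the morpholinos was not tested.

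**Figure D4:**
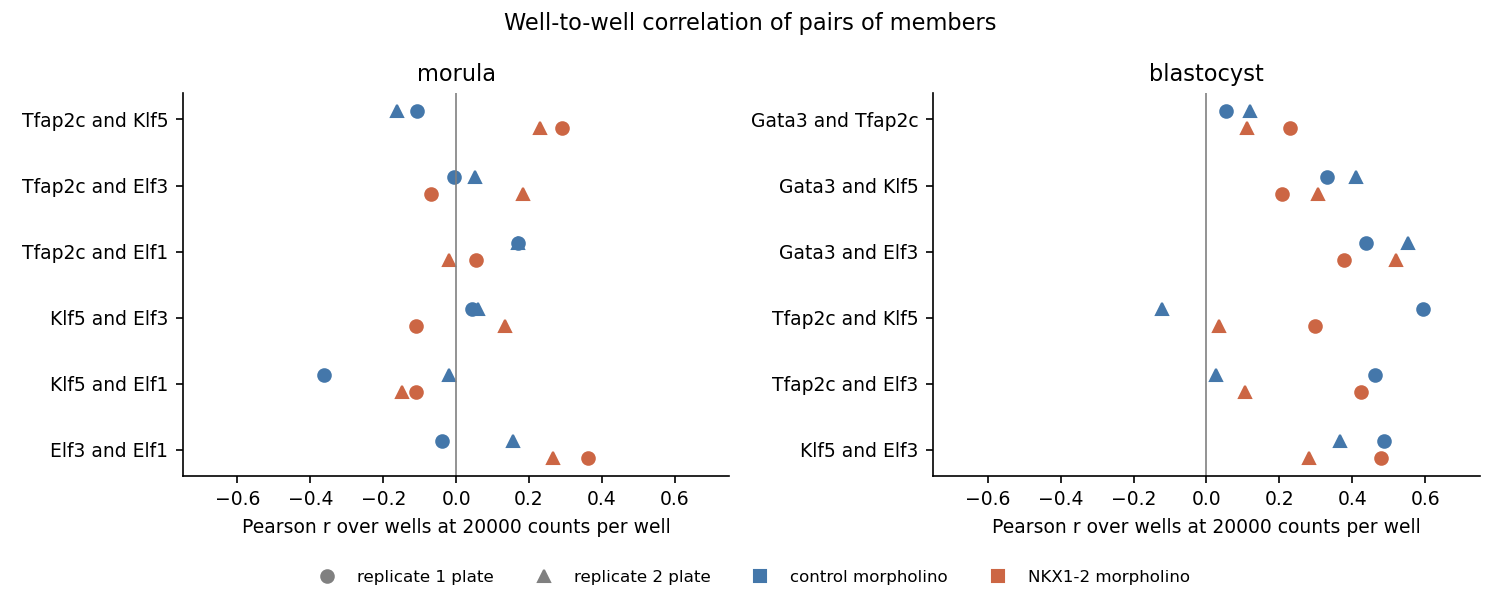
Pearson correlation over wells (x axis) of each pair of members (y axis) in morula (left) and blastocyst (right), after thinning to 20000 counts per well; each symbol is 1 plate and morpholino. Morula symbols lie between -0.36 and 0.36, while in the blastocyst all 4 symbols lie above 0 for every pair except Tfap2c and Klf5.

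The members were then set against 24 trophectoderm effector genes, which encode keratins, claudins, pumps and endocytic receptors and hold no member. This list, like the members, was chosen with earlier results of these data known, so it is not an independent check. In blastocyst wells the mean correlation with their summed level was 0.55 for Gata3 (0.44 to 0.65 over the 4 groups), 0.49 for Elf3 (0.35 to 0.72), 0.45 for Tfap2a, 0.43 for Klf5, 0.41 for Cdx2 and 0.29 for Tfap2c. In the morula those 6 lay between -0.03 and 0.18. With the summed inner cell mass markers Gata3 had a mean correlation of -0.24 in the blastocyst, below 0 in 4 of 4 groups, though after thinning 1 group was at 0.17. The means of Klf5, Tfap2a, Cdx2, Tfap2c and Elf3 were -0.20, -0.18, -0.15, -0.08 and -0.04, each with at least 1 group above 0. Most of this sum is 1 gene, Dppa5a, at 3136 ± 67.1 CPM in control and 2455 ± 44.9 CPM in NKX1-2 blastocyst sums (SD, n = 2 plates).

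Blastocyst wells were also ranked within each plate and morpholino by their effector counts after thinning, and 52 wells at the low end were compared with 52 at the high end (a ranking into 3 equal parts). Gata3 had a count in 14 low wells (26.9%) and in 43 high wells (82.7%). Cdx2 went from 2 to 17 wells, Tfap2a from 1 to 16 and Elf3 from 32 to 50. The order held in all 4 groups for Gata3, Cdx2, Tfap2a and Elf3. Tfap2c went from 34 to 41 wells and Klf5 from 50 to 52, while Elf1 went from 7 to 11 and Eomes from 3 to 4. Sox2, an inner cell mass factor, went the other way, from 13 wells to 1. Nanog, which marks the epiblast, was in 33 and 38 wells and Pou5f1 in 37 and 40. In the morula, with 60 wells at each end, Gata3 was in 19 and 16 wells, Elf3 in 13 and 14 and Cdx2 in 5 and 1. Much of the effector sum there is Tfrc, at 796 ± 58.5 CPM in control morula sums, and Cldn7, at 294 ± 6.06 CPM (SD, n = 2 plates). Neither rose with stage, and both also weigh in the control blastocyst sums, at 560 ± 240 and 284 ± 2.16 CPM. Fabp3 went from 24.1 ± 0.69 to 314 ± 44.4 CPM, so the rankings of the stages differ in content only in part. How far the effector correlations and rankings in the blastocyst rest on genes that rose with stage was not tested.

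**Figure D5:**
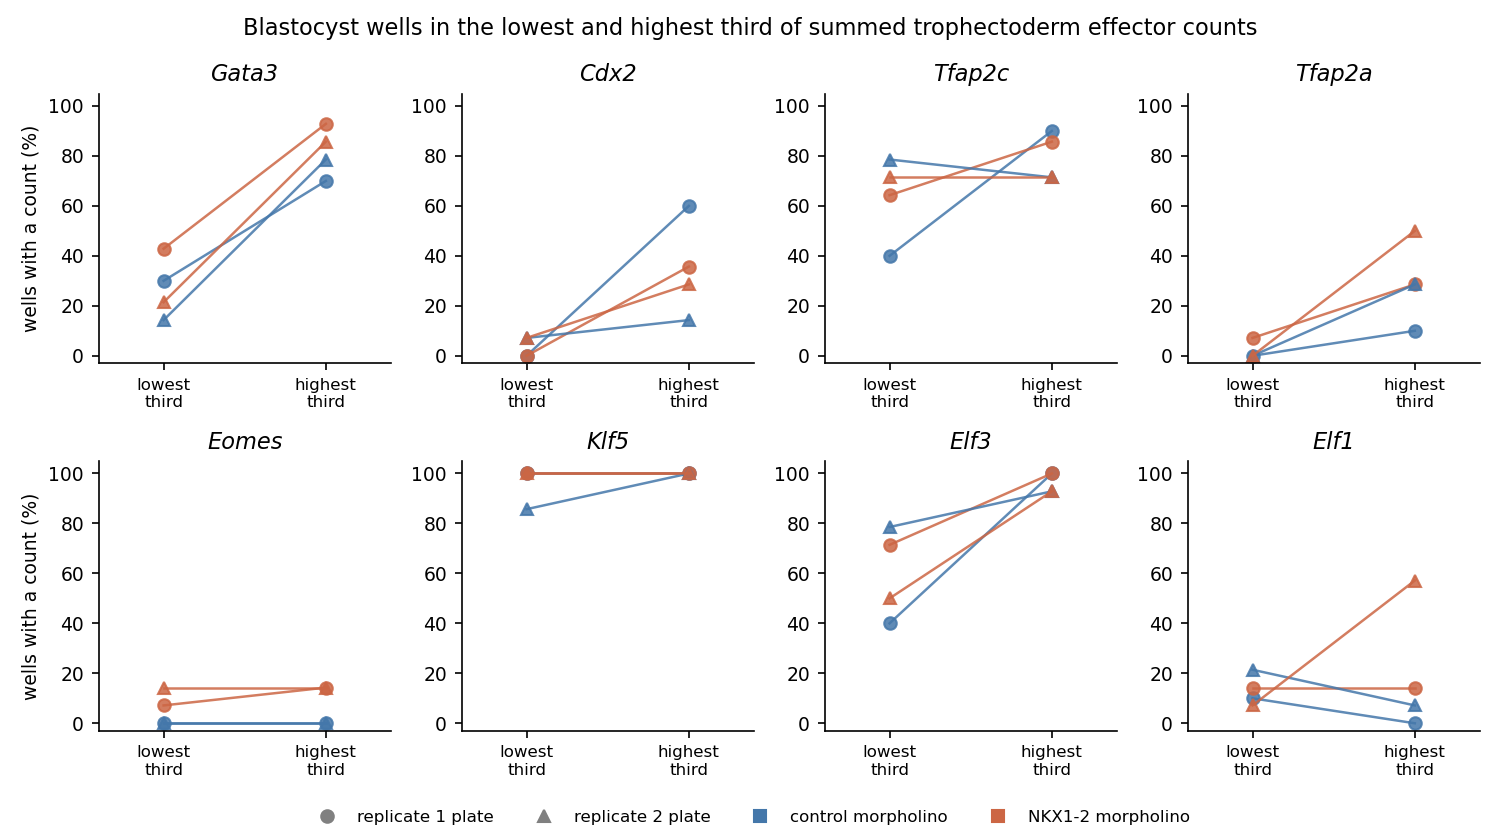
Percent of blastocyst wells with a count (y axis) of 8 members in wells with the lowest and highest summed effector counts (x axis, outer parts of a ranking into 3), after thinning to 20000 counts per well; each line is 1 plate and morpholino. Lines rise for Gata3, Cdx2, Tfap2a and Elf3 in all 4 groups, Klf5 is at 85.7% or above throughout, and the Elf1 lines go both ways.

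Genes most alike were chosen on the replicate 1 plate of a stage and read again on replicate 2. For Gata3 in the blastocyst they were Dab2 (0.59, then 0.54), an endocytic adaptor, G3bp2 (0.55, then 0.42), an RNA-binding protein, Lrp2 (0.54, then 0.62), the endocytic receptor megalin, Akr1b8 (0.53, then 0.43), an aldo-keto reductase, and Cnn3 (0.51, then 0.53), a calponin. On replicate 2, Lrp2 ranked 1 and Dab2 ranked 3 of 5735 genes. For Elf3 they were Lrp2 (0.59, then 0.38), Akr1b8 (0.59, then 0.41), Lrpap1 (0.57, then 0.63, rank 1), a chaperone of LRP receptors, Actb (0.54, then 0.25) and Slc25a5 (0.51, then 0.37). The genes chosen for Tfap2c in the blastocyst went from 0.35 to 0.38 on replicate 1 to -0.21 to 0.09 on replicate 2, so they did not hold. Those of Klf5 (Actb, Snx3, Ciao2a, Etfa and Anapc10) went from 0.42 to 0.50 down to -0.08 to 0.24. In the morula, Klf5 with Btrc (0.48, then 0.35) and Elf3 with Aldh2 (0.36, then 0.31) ranked 27 and 19 of 7790 genes, and the other 18 chosen genes were at 0.23 or below on replicate 2.

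Most tested effectors rose with stage, and a few fell. Of 20 tested effectors in control wells, 12 rose and 2 fell (median log2 fold change 1.07), and of 21 in NKX1-2 wells, 11 rose and 3 fell (median 0.76). Of all genes, 20.1% rose and 21.6% fell in control wells, and 21.9% and 24.0% in NKX1-2 wells. Lrp2 had log2 fold changes of 5.80 (SE 0.39) and 6.07 (SE 0.34). Its replicate 1 morula sums, at 0.84 CPM in control and 0.77 CPM in NKX1-2 wells, lay under the floors, so that size is uncertain. Dab2 had 3.15 (SE 0.26) and 3.64 (SE 0.23), and Fabp3, a fatty acid binding protein, 3.71 (SE 0.22) and 2.91 (SE 0.20). Ptges, a prostaglandin E synthase, rose by 3.22 (SE 0.29) in control wells and Krt18, a keratin, by 3.37 (SE 0.23) in NKX1-2 wells. The effectors that fell, named after their values were seen, were Cldn4, a claudin, at -2.13 (SE 0.27) and -2.06 (SE 0.21), Amn, the partner of cubilin, at -1.64 (SE 0.53) and -2.25 (SE 0.42), and, in NKX1-2 wells, the transferrin receptor Tfrc at -0.59 (SE 0.14). Between the morpholinos, no effector of 22 passed in the morula or in the blastocyst (lowest adjusted p = 0.0521 and 0.190, with 4 and 3 at an unadjusted p under 0.05). On average over the stages 1 did, Fabp3, at 0.45 (SE 0.12, adjusted p = 0.0489), where 2.90% of all genes passed and 1.56% rose. The median over the 22 was 0.06 in the morula and 0.02 in the blastocyst.

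Of the genes that act upstream of the members, Tead4, Yap1 and Nf2 fell and Rbpj rose with stage with either morpholino. Of 17 tested genes of the Hippo and Notch pathways and their TEAD partners, 2 rose and 3 fell in control wells and 2 rose and 4 fell in NKX1-2 wells, where 41.7% and 45.9% of all genes passed. Tead4 went from 331 ± 19.2 to 84.4 ± 5.73 CPM in control wells (SD, n = 2 plates; log2 fold change -1.96, SE 0.20) and fell by 2.13 (SE 0.16) in NKX1-2 wells. Yap1 fell by 1.45 (SE 0.22) and by 1.65 (SE 0.20), and Nf2, an upstream Hippo component, fell by 1.16 (SE 0.31) and by 1.16 (SE 0.27). Rbpj, the Notch effector that also acts on Cdx2, rose by 1.02 (SE 0.27) and 1.099 (SE 0.26). Among 18 regulators tested between the morpholinos, none passed in the morula, in the blastocyst or on average (lowest adjusted p = 0.374, 0.235 and 0.0680, with 2, 4 and 3 at an unadjusted p under 0.05).

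Among other trophoblast transcription factors, 3 fell with stage with either morpholino. In control wells 3 of 5 tested fell and none rose, where 21.6% of all genes fell and 20.1% rose: Tfeb, at -2.76 (SE 0.26), Hand1, a factor of giant cells, at -2.33 (SE 0.29), and Sox21 at -1.63 (SE 0.41). In NKX1-2 wells the same 3 fell, at -3.10 (SE 0.24), -2.67 (SE 0.46) and -3.27 (SE 0.42), and Id2 rose by 2.98 (SE 0.51), so 3 of 7 tested fell and 1 rose, where 24.0% of all genes fell and 21.9% rose. The list held 18 genes, so most were under the count filter. Between the morpholinos none of 9 passed in the morula, in the blastocyst or on average (lowest adjusted p = 0.258, 0.205 and 0.0850, with 1, 2 and 3 at an unadjusted p under 0.05).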

How the data were processed

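Transcripts were measured per well on 4 plates, with the control and the NKX1-2 morpholino on each. The deposited values are whole-number counts per gene and well barcode, without normalization; the authors' barcode table gives each well's morpholino. The submitters' processing notes name TopHat2, GRCm38 and mm10; for the counter, strand use and reads or molecules, the entry is: not given in the sources used here. Per the labels' protocols, polyA RNA was captured with an Illumina TruSeq protocol, while the labels' descriptions name 10x Genomics.

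Counts of wells with at least 2000 genes were summed into 8 sums (1084312 to 2398605 counts). Sums were fitted with edgeR 4.0.16 (robust quasi-likelihood, TMM, filterByExpr; limma 3.58.1, R 4.3.3), with the plate as a block, since it holds both morpholinos; deviations of its sums correlated at 0.257 in the morula and -0.00 in the blastocyst. Stages were fitted on the 4 sums of each morpholino. Benjamini-Hochberg adjusted p-values under 0.05 passed. Of the neighbouring genes U2af1 to V1rg10, 344 had no morula count and were left out, none of them a member. SE is the log2 fold change over the root of F. Models were run on simulated data. For the stage comparisons, that simulation held no differences between plates beyond the spread left after the plate block. It therefore cannot show how the stage fits handle such differences. Wells thinned to 20000 counts (seed 20) were used for shares; that depth was chosen after the depths were seen. Doublets were not called. Intervals are exact (Clopper-Pearson for shares) at 95%, floors are 3 counts per sum (in CPM without TMM), and both cover counting error only. Gene models came from GENCODE M21 and promoters from RefSeq.

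Named were all members, at most 4 genes that passed per list and comparison by smallest p, and 5 most alike genes per member. Members and lists were chosen with earlier results of these data known. Alternatives were RLE size factors, DESeq2 1.42.0, limma voom, no filter, every well, wells with 4000 genes, thinning, leaving out the top well or a plate, wells by Xist, other blocks and other fits. Leaving out a plate left its stage with a single plate. Calls of those fits rest on the spread of the other stage's plates, so they show no spread within the reduced stage. Other software was pandas 2.3.3, scipy 1.17.1, matplotlib 3.10.9, numpy 2.4.6 and Python 3.11.15.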

Additional observations from a re-analysis of the deposited data

Results flagged for a closer look

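The 15 blastocyst wells with fewer than 2000 detected genes entered the reported values of no comparison and only the alternative that uses every well. They held 6 counts of Elf3, in 5 of the wells, among 28067 counts in all. They are named because Elf3 was counted in wells outside the reported values, and no level was compared. Gata3 had 3 counts there, all in 1 well, and Cdx2, Tfap2c, Eomes, Klf5 and Elf1 had 1 each.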

How the results depend on the processing

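Of the alternatives to single members' log2 fold changes, 584 kept their direction and side of the threshold, 34 lost the threshold, 22 changed sign and 6 gained the threshold. Members called in the morula went from 2 to 1 with DESeq2 (which gave Elf1 no adjusted p), limma voom or no replicate block, to 0 with thinned wells or in wells with Xist and no Y-linked count, and to between 0 and 3 without single plates. In the blastocyst, 0 became 0 to 1 without single plates. On average, 2 became 1 with DESeq2 and 0 in the Xist wells, and for the difference 0 became 0 to 1 without single plates. Between stages, 5 became 3 in the Xist wells of the control, and in NKX1-2 wells 7 became 4 with DESeq2, 4 in the Xist wells and 3 to 5 without single plates. The median pair correlation of NKX1-2 morula wells, -0.017, was -0.047 to 0.127 without single plates. The stage calls of Elf3, Gata3 and Tfap2c held in 15 of 15 alternatives with either morpholino.

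Sign changes touched values that had not passed. With thinned wells the blastocyst log2 fold changes of Cdx2 and Klf5 were 0.022 and 0.016, and without the top well that of Cdx2 was 0.14. With no filter that of Klf5 was 0.021, and with RLE size factors and wells with 4000 genes that of Tfap2c was -0.0013 and -0.033. In the Xist wells Tfap2c was at 0.082 in the morula and 0.086 on average, and the stage differences of Elf1 and Klf5 were 1.72 and -0.098; with DESeq2 that of Elf1 was 0.068. Without single plates the morula ranges were -0.54 to 0.23 for Elf3 and -0.39 to 0.24 for Tfap2a. The blastocyst ranges were -0.19 to 0.025 for Cdx2, -0.70 to 0.031 for Elf3, -0.18 to 0.15 for Klf5 and -0.12 to 0.14 for Tfap2c. The ranges of the difference were -0.36 to 0.82 for Elf1, -0.60 to 0.20 for Elf3 and -0.052 to 1.79 for Eomes. The cause was not tested.

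Over all genes, the 60 calls of the morula became 15 with DESeq2, 35 with thinned wells, 179 with no filter, 34 with no replicate block, 834 with the morula plates alone, 8 in the Xist wells and 13 to 838 without single plates. The 79 of the blastocyst became 20, 69, 254, 43, 123, 14 and 99 to 635 under the same alternatives, with its own plates alone. The 315 on average became 60 with DESeq2, 532 with no filter, 185 with no replicate block, 36 in the Xist wells and 92 to 1071 without single plates. The 2 of the difference became 1 with DESeq2, limma voom, thinned wells, every well or no replicate block, 27 with no filter, 0 in the Xist wells and 4 to 252 without single plates. Between stages, 3993 and 4690 became 2513 and 2998 with DESeq2, 1602 and 2684 in the Xist wells, and 2586 to 4213 and 2266 to 3592 without single plates.

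The replicate number did not pair plates across stages (correlations 0.025 and -0.0020), and with it as a replicate block 5 and 7 members passed, as without. Depth limits Gata2, Eomes and Cdx2, whose sums held at most 18 counts.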

Other observations

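Among relatives of the members, Klf6 rose and Klf2, Klf4, Klf17 and Gata4 fell with stage with either morpholino. Of 12 tested family members in control wells, 2 rose and 9 fell, where 20.1% of all genes rose and 21.6% fell. Klf6, a Krüppel-like factor of epithelia and placenta, rose from 1.51 ± 0.85 CPM (SD over 2 plates) to 49.8 ± 1.05 in control wells. This was 4.97 on the log2 scale with SE 0.46 (edgeR adjusted p = 9.88e-09), and 3.99 (SE 0.40) in NKX1-2 wells. Its control morula sums, at 2.11 and 0.91 CPM, lay around the floors of 1.39 and 1.44 CPM without TMM. The size of the rise is therefore uncertain. Klf2, a pluripotency factor, went from 744 ± 0.45 to 106 ± 8.23 CPM in control wells, a log2 fold change of -2.80 (SE 0.18). Klf17 had log2 fold changes of -3.84 (SE 0.45) in control and -2.67 (SE 0.32) in NKX1-2 wells, and Klf4 of -1.30 (SE 0.27) and -1.98 (SE 0.23). In NKX1-2 wells 1 of 12 rose and 8 fell, where 21.9% of all genes rose and 24.0% fell. Gata4, a primitive endoderm factor, went from 35.7 ± 0.23 to 0.92 ± 0.21 CPM in control wells, a log2 fold change of -5.20 (SE 0.60). Its control blastocyst sums, at 1.07 and 0.77 CPM, lay under the floors of 2.77 and 2.05 CPM without TMM. The size of the fall is therefore uncertain.

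Elf2, an ETS relative of Elf1, fell with the NKX1-2 morpholino on average over the stages, by 0.90 (SE 0.18, adjusted p = 0.0117) on the log2 scale. It was lower on 4 of 4 plates, and was the 1 of 12 tested family members that passed this average. Its CPM on the morula plates were 33.8 and 28.7 in control and 16.5 and 19.1 in NKX1-2 wells, and on the blastocyst plates 61.8 and 43.6 against 28.2 and 24.1. Of the 11 tested inner cell mass markers 1 fell on average, Dppa5a, by 0.33 (SE 0.06, adjusted p = 0.0122). Of all genes, 2.90% passed on average and 1.33% fell.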
